A study of Mus musculus with 4 samples.

Results

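The transcription factors described here are 10 genes that act in sequence while cortical progenitors become neurons: Eomes, Insm1, Neurog1, Neurog2, Neurod1, Neurod2, Neurod4, Neurod6, Nhlh1 and Nhlh2. They were taken by gene symbol from a table of 32681 genes, and all 10 were present and passed the filter on low counts. The data are RNA sequencing of 4 primary neuron cultures from the neocortex of wild-type CD-1 mouse embryos at embryonic day 13, kept in Neurobasal medium with B27 supplement. Short hairpin RNAs (shRNAs) were transfected: a control hairpin into 2 cultures, and into the other 2 a hairpin against DcpS, an enzyme that clears the cap structure remaining once an mRNA has been degraded. No allele or other agent is named for either group, and the labels do not give the promoter of the hairpins, the share of cells transfected or whether cultures came from separate litters. What the p-values gauge is thus the variation among these 4 cultures, and it may be of technical origin.

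With DcpS shRNA, Nhlh2 rose 1.52-fold and Neurod4 rose 1.58-fold, and both were higher in each of the 2 DcpS shRNA cultures than in either control. The call of Nhlh2 held in 12 of 12 alternative settings, that of Neurod4 in 10, not with DESeq2 or without control 2. Eomes and Insm1, the T-box and zinc-finger factors of intermediate progenitors, differed from the controls by 3.81% and 0.223% of the mean, less than the spread between the 2 controls. Neurod6, the most abundant of the 10, had a mean 11.8% below the controls and narrowly missed the threshold of 0.05 for the adjusted p (limma, Benjamini-Hochberg adjustment over all genes tested, 0.0537).

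In the developing cortex, radial glia divide to give intermediate progenitors, which leave the ventricular surface, express Eomes (also called Tbr2) and divide into glutamatergic neurons. Proneural factors of the basic helix-loop-helix (bHLH) class drive this step: neurogenins are switched on first, NeuroD and Nhlh factors follow in progenitors and young neurons, and each binds an E-box, CANNTG, as a dimer with a ubiquitous E protein. Id proteins take the E proteins away and Hes and Hey repressors, induced by Notch, hold the neurogenins down.

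The libraries held 17754768 to 21793685 recovered reads. Values below are normalised read counts, the authors' reads divided by 1 size factor per library. Dcps, the target of the hairpin, stood at 499.8 and 507 in the controls against 114 and 120 in the DcpS shRNA cultures. Among 6 pan-neuronal genes the tubulin gene Tubb3 (19013 to 19935) and the microtubule-associated protein gene Map2 (20246 to 21924) were high in all 4 libraries, while Sox10, a defining gene of the oligodendrocyte lineage, was listed at 0 in both controls. The cultures also held RNA of other cells. The summed level of 8 fibroblast and matrix genes was 11939 and 13237 in the controls against 7234 and 6925 with DcpS shRNA, and all 8 fell (6 of them by DESeq2). In bulk RNA, fewer cells of a type and less RNA per cell cannot be told apart, and this holds for each factor below.

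The 10 factors covered a wide range of levels. Counts were divided by the exon length annotated in GENCODE M21 (GRCm38) so that genes could be compared. Neurod6 led with 4878 ± 148 normalised reads per kilobase in the controls (SD, n = 2), followed by Neurod2 at 1590 ± 99.2, both factors of glutamatergic neurons that have left the cell cycle. Eomes followed at 944 ± 45.6 and Insm1 at 665 ± 48.7. Neurod1 stood at 461 ± 37.0 and Neurog2 at 432 ± 46.2, the only neighbours in this order whose control libraries overlapped. Nhlh1 had 164 ± 4.20, Nhlh2 68.2 ± 2.13, Neurod4 29.8 ± 5.27 and Neurog1 15.4 ± 2.89. The order of the means was the same with DcpS shRNA.

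**Figure D1:**
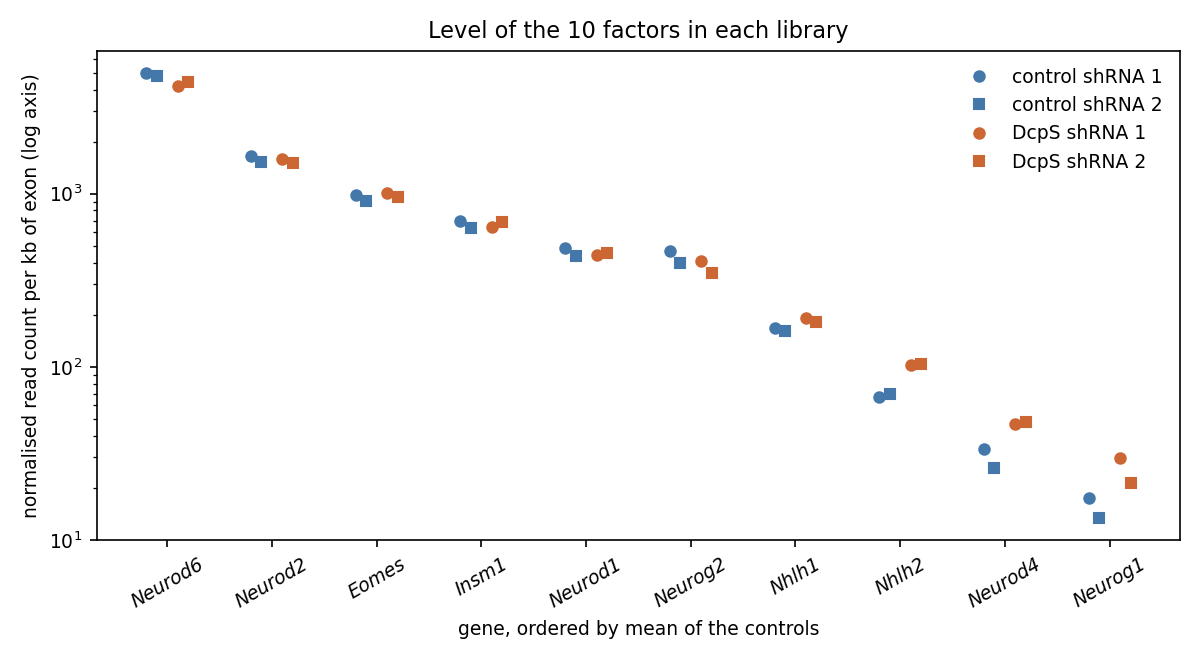
Normalised read count per kilobase of exon (log axis) of each factor in each library, with controls in blue and DcpS shRNA in orange. Nhlh2 and Neurod4 lie higher in both DcpS shRNA libraries than in both controls, and Neurod6 lies lower in both, from 4166 to 4441 against 4773 to 4982.

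Nhlh1 and Nhlh2 are bHLH factors of newly born neurons. Nhlh2 (ENSMUSG00000048540.8, chromosome 3, 102010076 to 102015492, plus strand, GRCm38) had 361 and 377 normalised reads in the controls against 555 and 565 with DcpS shRNA. The groups lie far apart for this gene: the gap from the highest control to the lowest DcpS shRNA library is larger than the distance within either group. Its mean rose from 369 ± 11.5 to 560 ± 7.30 (SD, n = 2 per group), a log2 fold change of 0.60 (SE 0.08; limma adjusted p 0.000247). Nhlh1 (chromosome 1, 172052292 to 172057573, minus strand) had 410 and 396 in the controls against 471 and 449 with DcpS shRNA. Its groups did not overlap either, but the log2 fold change of 0.19 (SE 0.08) did not pass (limma adjusted p 0.234). Per kilobase, the ratio of Nhlh2 to Nhlh1 within a library was 0.400 and 0.434 in the controls against 0.537 and 0.573 with DcpS shRNA. This ratio does not depend on how libraries were scaled, and with 2 libraries against 2 the smallest p that an exact permutation test (two-sided) can reach is 0.333.

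The stretches upstream of the start sites are shown for the pair Nhlh2 and Nhlh1 and for Neurod4 and Neurod6, the other factor called and the one lower factor whose groups did not overlap. They are RefSeq sequences on GRCm38.p6, 5′ to 3′ on the gene's strand, taken from the 250 bases before the start and ending where the GENCODE M21 gene begins if that is earlier. Capitals mark E-boxes, the motif CANNTG.
Nhlh2, chr3:102009895-102010075, plus strand: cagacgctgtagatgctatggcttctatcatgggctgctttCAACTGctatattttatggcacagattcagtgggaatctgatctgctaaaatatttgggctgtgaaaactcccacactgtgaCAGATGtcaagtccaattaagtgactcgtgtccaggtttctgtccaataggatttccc
Nhlh1, chr1:172057597-172057846, minus strand: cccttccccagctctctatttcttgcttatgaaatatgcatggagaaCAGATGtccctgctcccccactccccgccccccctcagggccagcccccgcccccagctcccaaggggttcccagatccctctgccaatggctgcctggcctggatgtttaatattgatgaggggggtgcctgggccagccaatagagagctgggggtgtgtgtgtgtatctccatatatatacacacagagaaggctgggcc
Neurod4, chr10:130280255-130280504, minus strand: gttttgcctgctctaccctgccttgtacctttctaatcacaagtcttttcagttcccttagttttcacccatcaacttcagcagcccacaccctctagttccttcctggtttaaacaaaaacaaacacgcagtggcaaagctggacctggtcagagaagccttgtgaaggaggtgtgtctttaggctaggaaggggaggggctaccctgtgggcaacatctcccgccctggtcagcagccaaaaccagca
Neurod6, chr6:55681264-55681513, minus strand: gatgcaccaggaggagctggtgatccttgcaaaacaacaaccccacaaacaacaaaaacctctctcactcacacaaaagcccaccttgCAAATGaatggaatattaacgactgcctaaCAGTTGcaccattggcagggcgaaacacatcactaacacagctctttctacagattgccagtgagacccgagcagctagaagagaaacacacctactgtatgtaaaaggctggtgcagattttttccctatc

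In the full windows of 250 bases, Nhlh2 held 2 E-boxes and Nhlh1 held 1, and both included CAGATG, a form that neurogenin and NeuroD factors are known to bind. The second start listed for Neurod4, like the one shown, had none, and Neurod6 had 2 of other forms than those counted next. Across 32851 promoter windows of the same length, 66.2% held CANNTG on either strand, 14.4% held CAGATG, 3.46% held CATATG and 13% held CAGCTG, the last 3 being forms of the first. The promoter table held 9 of the 10 factors, without Insm1. CAGATG was not particular to the Nhlh pair: Neurod2, which did not pass, held 3 E-boxes, CAGATG among them. CATATG was found upstream of Neurod1 and Neurod2, and no CANNTG upstream of Eomes, Neurog1 or Neurog2. These matches describe letters in the windows, not bound sites.

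Neurogenins stand at the head of the cascade. Neurog2 (chromosome 3, 127633135 to 127635631, plus strand), the main neurogenin of the dorsal cortex, had 1035 and 889 in the controls against 916 and 777 with DcpS shRNA. The groups overlapped, since the DcpS shRNA 1 culture lay above control 2. The log2 fold change was −0.19 (SE 0.09) with an interval from −0.37 to 0.001 (95%, for 1 gene), and it did not pass (limma adjusted p 0.272). Neurog1 (chromosome 13, 56250478 to 56252163, minus strand) had the lowest counts of the 10, with 31 and 22 recovered reads in the controls against 55 and 32 with DcpS shRNA. Its normalised values were 29.5 and 22.6 against 49.97 and 35.8, and the log2 fold change of 0.69 (SE 0.27) did not pass (limma adjusted p 0.163). The exact Poisson 95% intervals of the control reads ran from 21.1 to 44 and from 13.8 to 33.3, and those of the DcpS shRNA reads from 41.4 to 71.6 and from 21.9 to 45.2 (counting error only, before scaling). The interval of DcpS shRNA 2 overlaps those of both controls, that of DcpS shRNA 1 overlaps control 1 alone. The unadjusted interval of its log2 fold change lay above 0.

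Eomes and Insm1 mark the intermediate progenitor. Eomes (chromosome 9, 118478212 to 118486132, plus strand), the T-box factor that defines these cells, had 4057 and 3789 in the controls against 4188 and 3957 with DcpS shRNA. Its log2 fold change was 0.05, with an interval from −0.06 to 0.17 (limma adjusted p 0.667). Insm1 (chromosome 2, 146221921 to 146225020, plus strand), a zinc-finger repressor that promotes the move from radial glia to intermediate progenitor, had 2167 and 1954 in the controls against 2002 and 2128 with DcpS shRNA. Both DcpS shRNA values lie between the control values, and the interval of the log2 fold change ran from −0.125 to 0.134 (limma adjusted p 0.981). The antisense gene Gm33460 overlaps exons of Eomes, with 19.95 to 27.9 normalised reads, and the protein-coding gene Cerkl overlaps exons of Neurod1, with 14.5 to 20.9. Both counts are small beside those of the factor they overlap, but how reads in shared exons were assigned is not given. A noncoding RNA gene on the opposite strand, Gm26755, also overlaps exons of Neurod1 and has no counts here.

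Of the 4 NeuroD factors, 1 rose and 3 did not pass. Neurod4 (ENSMUSG00000048015.4, chromosome 10, 130268152 to 130280240, minus strand), a factor of progenitors and young neurons, had 112 and 87.2 in the controls against 155 and 160 with DcpS shRNA. The 2 DcpS shRNA cultures were close to each other and the controls further apart. The mean rose from 99.6 ± 17.6 to 158 ± 3.14 (SD, n = 2 per group), a log2 fold change of 0.67 (SE 0.15; limma adjusted p 0.0147). Leaving out control 2 ended the call (limma adjusted p 0.149), as did DESeq2 (adjusted p 0.135). In recovered reads the 4 values were 118, 85, 171 and 143, so that counting error alone is 7.65% to 10.8% of each.

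Neurod1 (chromosome 2, 79452521 to 79456751, minus strand), the NeuroD factor of late intermediate progenitors, had 1329 and 1187 in the controls against 1200 and 1234 with DcpS shRNA. Its log2 fold change was −0.05, with an interval from −0.18 to 0.09 (limma adjusted p 0.777). Neurod2 (chromosome 11, 98325415 to 98329648, minus strand), which acts in postmitotic neurons, had 5215 and 4775 in the controls against 5013 and 4757 with DcpS shRNA. Its groups overlapped, and the interval of its log2 fold change ran from −0.15 to 0.09 (limma adjusted p 0.832). Neurod6 (chromosome 6, 55677822 to 55681263, minus strand), a marker of cortical glutamatergic neurons, had 10712 and 10262 in the controls against 8958 and 9549 with DcpS shRNA. Both DcpS shRNA cultures lay below both controls. The log2 fold change was −0.18 (SE 0.05), with an unadjusted interval from −0.29 to −0.07, just short of the threshold after adjustment (limma adjusted p 0.0537). It passed in 5 of 12 alternative settings, among them TMM scaling and the fit without either DcpS shRNA culture.

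Within a library, Neurod4 stood at 0.0688 and 0.0599 of Neurod1 per kilobase in the controls and at 0.106 in each DcpS shRNA culture. The ratio of Neurod6 to Neurod2, the pair of late factors, was 3 and 3.14 in the controls against 2.61 and 2.93 with DcpS shRNA. Neurog2 per Eomes was 0.476 and 0.438 in the controls against 0.408 and 0.366 with DcpS shRNA. Neurod1 per Neurog2 was 1.05 and 1.09 in the controls against 1.07 and 1.3 with DcpS shRNA, and here the groups overlapped. Of the 45 ratios that the 10 factors allow, the groups did not overlap in 36, so a ratio without overlap was common among them.

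**Figure D2:**
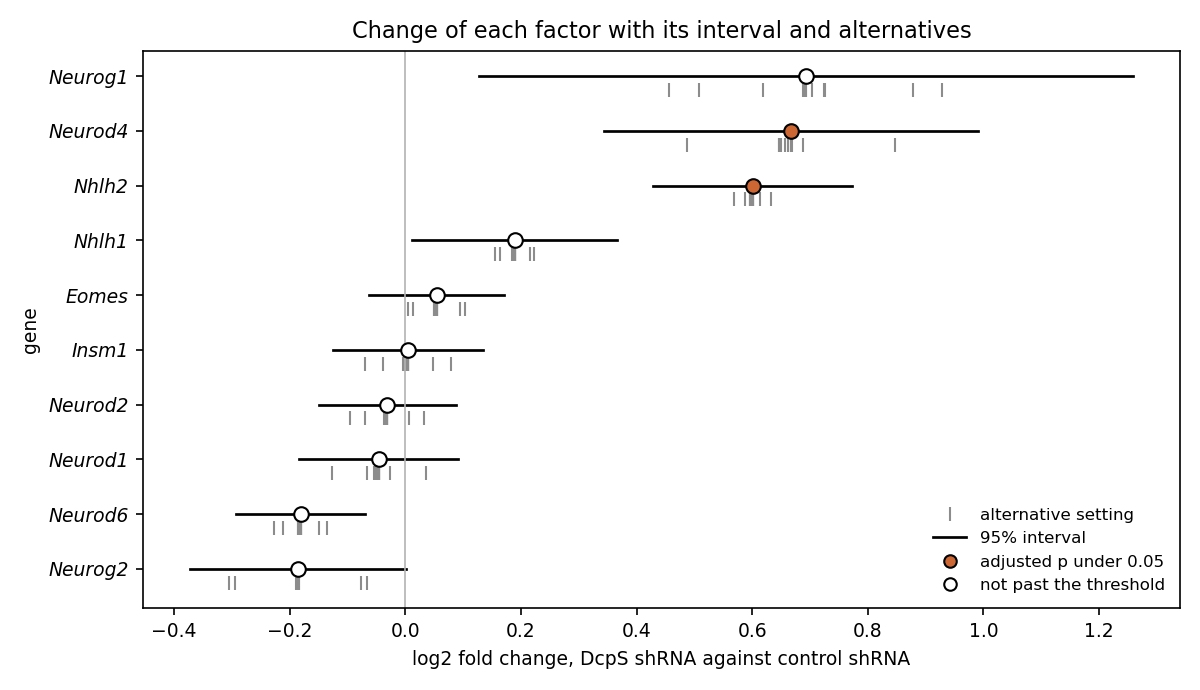
Log2 fold change of each factor, DcpS shRNA against control shRNA (circles, filled where the adjusted p is under 0.05), with its 95% interval (line) and the values under 12 alternative settings (grey ticks). Nhlh2 at 0.60 and Neurod4 at 0.67 are the filled circles, and the wide interval of Neurog1 runs from 0.13 to 1.26.

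Over the 10 factors, 2 were called higher and 0 lower (limma). Over all 18110 genes tested, 2.14% were called higher and 3.65% lower. By unadjusted p under 0.05, limma had 4 factors higher and 1 lower, beside 8.75% and 9.92% of all genes tested. By adjusted p, edgeR called 2 higher and 0 lower, beside 2.10% and 3.85% of all genes. DESeq2 called Nhlh2 higher and 0 lower, beside 0.756% and 1.72%. The factors' median log2 fold change was 0.03 against 0.001 for all genes tested, and their median size of change 0.18 against 0.11. The groups did not overlap for 4 factors with DcpS shRNA higher and for 1 with it lower, where 24.4% and 24.0% of all tested genes separate in those directions. The summed level of the 10 was 25429 and 23739 in the controls against 23508 and 23612 with DcpS shRNA, a mean 4.17% lower. Without Neurod6 the mean of the sum was 1.49% higher.

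**Figure D3:**
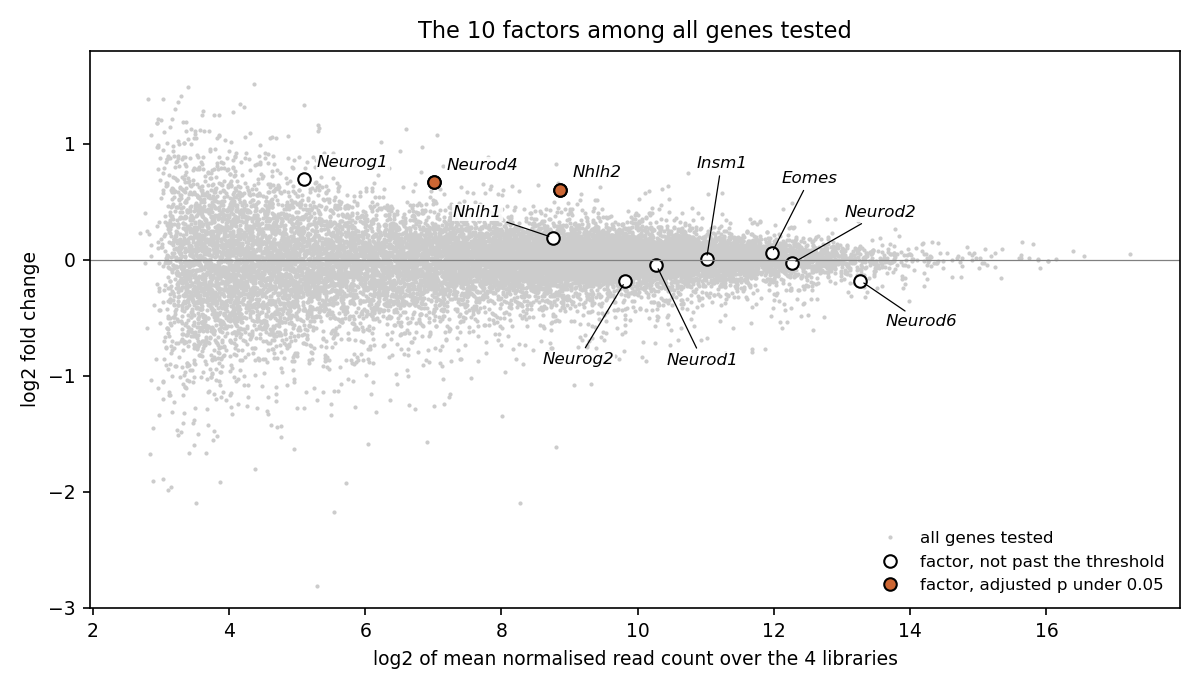
Log2 fold change of all 18110 genes tested (grey) against the log2 of the mean normalised read count over the 4 libraries, with the 10 factors marked. Nhlh2 and Neurod4 (filled) lie near the upper edge of the grey cloud at their level, while Eomes, Insm1, Neurod1 and Neurod2 lie close to 0, with Eomes at 0.05 and Neurod1 at −0.05 the furthest from it.

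Some genes that fell with this hairpin share short words in their 3′ UTR. The 7-base words ACGTGCA and CACGTGC were found earlier in these same data. At least 1 of them occurred in the annotated 3′ UTR of 33.1% of 646 scanned genes called lower. The share was 6.25% of 368 scanned genes called higher and 8% of 13708 scanned genes tested. Because the words came from these data, the higher share among genes called lower is not an independent test. The words were present in 0 of the 10 factors. With a share of 8% over all scanned genes, that count is not unusual and says nothing particular about the factors. Of the genes named below that fell, Pou3f2, Syt1 and Ebf1 carry at least 1 of the words.

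The remaining genes of the pathway were taken from 5 lists with 53 genes, of which 45 were tested, 7 rose, 2 fell and 36 did not pass (limma adjusted p). Over all genes tested, 2.14% were called higher and 3.65% lower. With DESeq2, 4 of the pathway genes rose and 2 fell, and with the replicate block 9 rose and 4 fell. Both counts also moved when 1 library was left out. The median of the 45 genes was 0.00, that of all genes tested 0.001.

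Among 11 other genes of intermediate progenitors, 3 rose, 2 fell and 6 did not pass, and the median was −0.04. Kif26b, a kinesin-family gene, fell from 806 and 788 to 557 and 507, with a log2 fold change of −0.58 (SE 0.07; limma adjusted p 0.000129). The antiproliferative gene Btg2 rose from 977 and 1012 to 1324 and 1302, and Rhbdl3 and Mfap4 also rose (log2 fold changes 0.38 and 0.37). For all of these the groups were separate by more than the distance within a group. The neuronal SOX factor Sox4, named after its value was seen, fell from 21044 and 19889 to 17146 and 17737. Leaving out control 1 (limma adjusted p 0.343) or control 2 (0.103) ended that call.

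Of 10 neurogenin targets and Notch ligands, 1 rose and 9 did not pass, with a median of 0.12. Mfng, a glycosyltransferase that modifies Notch, rose from 873 and 775 to 1044 and 941 (limma adjusted p 0.0437). Leaving out control 2 (limma adjusted p 0.366) or DcpS shRNA 1 (0.166) ended that call, as did DESeq2 (0.215). The most abundant genes of the list did not pass: the microtubule-associated gene Dcx had a log2 fold change of −0.15 and the GTPase gene Rnd2, a Neurog2 target in migrating neurons, 0.06.

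Of 11 bHLH partners and inhibitors, 1 rose and 10 did not pass, with a median of −0.03. The Notch-induced repressor Hey1 rose from 424 and 465 to 558 and 532 (limma adjusted p 0.0451), a call lost when control 1 (0.303) or DcpS shRNA 1 (0.122) was left out and when DESeq2 was used (0.288). The E protein Tcf4 and the inhibitor Id2 each had a log2 fold change of −0.05 and overlapping groups. Of 10 other neural bHLH activators 4 were tested and 0 called by limma, edgeR or DESeq2, with 3 of the 4 lower at an unadjusted p under 0.05 in limma. Bhlhe22, a bHLH factor of cortical neurons, had a log2 fold change of −0.04.

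Of 11 Insm1 cofactors and T-box relatives 9 were tested, 2 rose and 7 did not pass, with a median of 0.03. The corepressor Rcor2 rose from 3616 and 3381 to 4097 and 4145 (limma adjusted p 0.0132). Without control 2 that call ended (limma adjusted p 0.276).

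**Figure D4:**
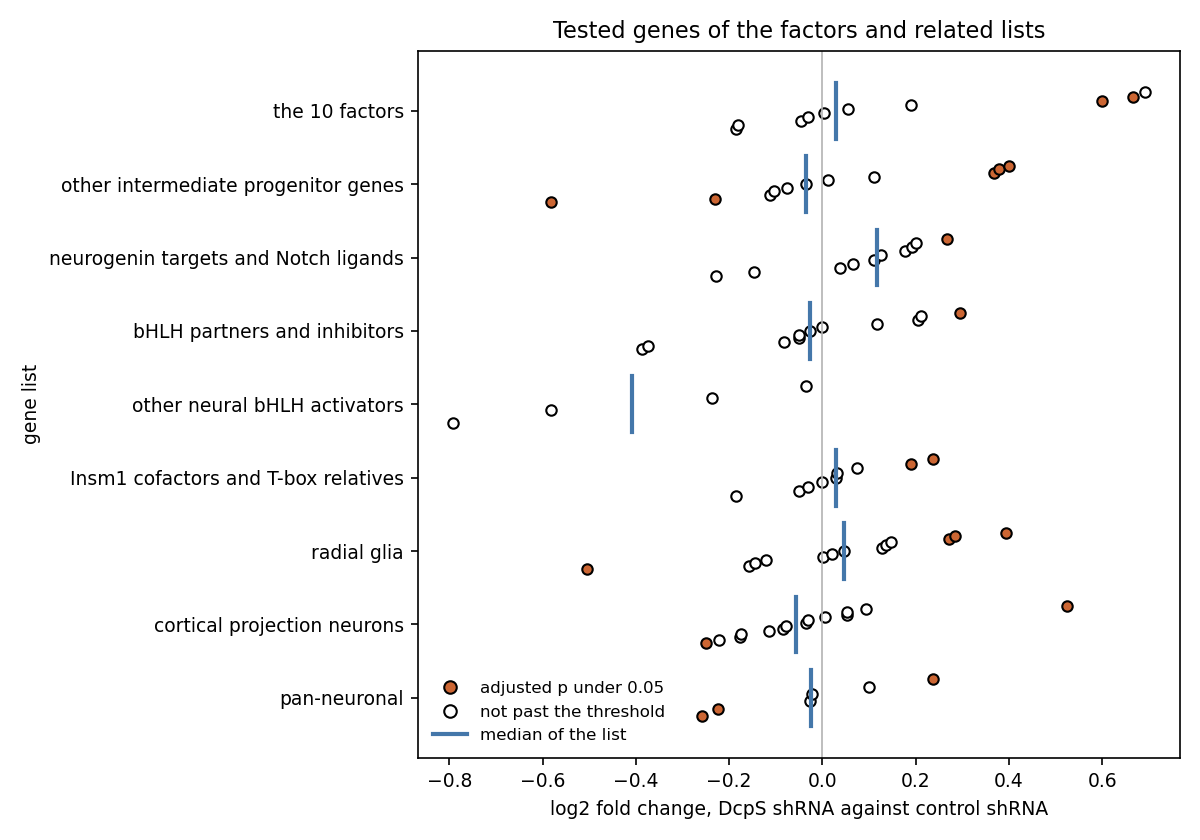
Log2 fold change of each tested gene in the 10 factors and 8 related lists, filled where the adjusted p is under 0.05, with the list median in blue. Called genes lie on both sides of 0 in the lists of other intermediate progenitor genes, radial glia, projection neurons and pan-neuronal genes.

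Markers of the cells before and after the intermediate progenitor moved in both directions. Of 13 radial glia genes 3 rose and 1 fell, and Tfap2c, a factor that promotes Eomes-expressing progenitors, rose from 1044 and 967 to 1244 and 1206. Leaving out control 2 (limma adjusted p 0.152) or using DESeq2 (0.0783) ended that call. Without control 2 only 1 radial glia gene was called higher, the intermediate filament gene Nes being lost too (limma adjusted p 0.0688, and 0.0662 without control 1). The remaining radial glia gene that rose kept its call in 12 of 12 alternative settings. The gene that fell, Hopx, was not called by DESeq2 (adjusted p 0.0783). Of 14 projection neuron genes 1 rose and 1 fell, the vesicular glutamate transporter Slc17a7 from 828 and 879 to 1201 and 1253 and the POU factor Pou3f2 from 2619 and 2438 to 2025 and 2229. Leaving out control 1 (limma adjusted p 0.225) or DcpS shRNA 1 (0.0511) or using DESeq2 (0.0606) ended the call of Pou3f2. Of 6 pan-neuronal genes the neuronal splicing factor Rbfox3 rose and the synaptic genes Snap25 and Syt1 fell. These calls were lost without control 1 for Snap25 (limma adjusted p 0.102) and Syt1 (0.0563) and without control 2 for Syt1 (0.318) and Rbfox3 (0.310). They were also lost without DcpS shRNA 2 for Rbfox3 (limma adjusted p 0.0586), and with DESeq2 for Syt1 (0.179) and Rbfox3 (0.136). Of 21 cell cycle genes 1 rose, the helicase subunit gene Mcm3, and the abundant Ccnd2 and Top2a had log2 fold changes of 0.0073 and 0.0033. The call of Mcm3 was lost without control 1 (limma adjusted p 0.117), control 2 (0.364) or DcpS shRNA 1 (0.0533) and with DESeq2 (0.145).

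Other cells that use these factors or could change their share gave the following values. Cajal-Retzius cells, early neurons of the cortical surface that also express Nhlh2 and Eomes, were followed with 10 genes: 0 rose and 1 fell (limma), with 1 higher at an unadjusted p under 0.05, and edgeR and DESeq2 called 0 higher. Their summed level was 9179 and 9080 in the controls against 8933 and 8138 with DcpS shRNA, mostly the secreted glycoprotein Reln. The gene that fell, Ebf1, had 42.8 and 29.7 against 16.4 and 14.5, and was not called without control 1 (limma adjusted p 0.309) or DcpS shRNA 2 (0.0696). DESeq2 gave it no adjusted p and called 0 genes of the list lower. GABAergic interneuron genes summed to 394 and 409 in the controls against 398 and 400 with DcpS shRNA, and of 9 tested the neuropeptide gene Npy rose, though not by DESeq2 (adjusted p 0.134). The near-equal sums cover moves in both directions, with 1 gene higher and 1 lower at an unadjusted limma p under 0.05. The lower one, Gad1, had 96.0 and 93.3 in the controls against 62.7 and 65.9 with DcpS shRNA and did not pass (limma adjusted p 0.0716). Of 8 astrocyte genes tested 5 fell and 1 rose, and their summed level was 8562 and 8769 against 7896 and 8034. The number that fell was 3 without control 2 or without DcpS shRNA 1, and 4 with DESeq2, while the 1 that rose, Aldoc, was not called without control 1 (limma adjusted p 0.161) or control 2 (0.231). Of 6 endothelial and mural genes tested 3 fell, and the list summed to 708 and 776 against 442 and 412. DESeq2 called 2 of them, without Kdr (adjusted p 0.217). The fall of the fibroblast, astrocyte and mural genes goes with the DcpS shRNA group as the rise of Nhlh2 and Neurod4 does, and its part in those changes was not tested.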

How the data were processed

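Total RNA of 4 cultures was sequenced. The deposited table holds 1 column per library. Its values are a signal scaled by the authors: each is a whole multiple of the column's smallest positive value. Division by this step returned whole reads in 100% of cases (tolerance 0.001), and the reciprocals of the steps equalled median-of-ratios size factors. The submitters' processing notes name HISAT2 2.2.0, SAMtools 1.3.1, Picard, featureCounts and DESeq2 with GRCm38. Annotation, settings and strandedness: not given in the sources used here.

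Differences were tested with limma 3.58.1 on log2(normalised read count + 1), with intensity trend, robust empirical Bayes and group as the only term. Tests were two-sided, with Benjamini-Hochberg adjustment over the 18110 genes that passed filterByExpr (minimum count 10), and a threshold of 0.05. Fold changes on this scale understate the change of low genes. The script was checked on simulated data in which every gene had the same dispersion. That check concerns the code and does not gauge the error rate of the calls in these cultures. The alternatives were other pseudocounts, scalings and filters, edgeR 4.0.16, DESeq2 1.42.0, a replicate block and each library left out. Exon lengths came from GENCODE M21 and promoter sequences from RefSeq (GRCm38.p6).

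The 10 factors and the gene lists were chosen with earlier results of these data known. Named are all 10 factors, Dcps, and from each list the called genes (at most the 4 of smallest p), with the 2 of highest mean where fewer than 2 were called. Some genes that this rule names are not reported here. Neurog3 and Ptf1a are not in the table.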

Additional observations from a re-analysis of the deposited data

How the results depend on the processing

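Nhlh2 was called higher in all 12 alternatives (log2 fold change 0.57 to 0.63, highest limma, edgeR or DESeq2 Benjamini-Hochberg adjusted p 0.000406). Neurod4 was called in 10 of 12 (0.49 to 0.85). The number of factors called higher was therefore 1 with DESeq2 and 1 to 2 with 1 library left out. Factors called lower numbered 1, Neurod6, with no expression filter, with TMM scaling and with the replicate block. With 1 library left out they numbered 0 to 2: Neurod6 without DcpS shRNA 2, Neurod6 and Neurog2 without DcpS shRNA 1. Eomes, Insm1, Neurod1, Neurod2, Neurog1 and Nhlh1 were called in 0 of 12. Genes called overall numbered 1048, against 448 with DESeq2 and 594 to 1439 with 1 library left out: 670 without control 1 and 594 without control 2. In these fits a lone library is assumed to vary like the others.

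The replicate numbers in the titles are not stated to mark a shared preparation. Over genes, the difference between libraries 1 and 2 correlated by r = 0.0429 between the groups (18110 genes, which are not replicates). With the replicate block 1626 genes were called, 2 factors higher and 1 lower. Neurog1 had the fewest reads of the factors, 22 to 55 per library. TMM or library-total scaling changed the sign of no factor and moved the median of all genes by less than 0.01.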
